A study of Caenorhabditis elegans with 2 samples.

Results

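Cathepsins and aspartyl proteases are the acid-working proteases of lysosomes and of the gut lumen. Cysteine cathepsins of the B, L and Z types cut proteins with an active-site cysteine, whereas aspartyl proteases, the group of cathepsin D and pepsin, use a pair of aspartates. In Caenorhabditis elegans, whose intestine both digests bacteria and stores reserves, cpr genes code for cathepsin B-like enzymes, cpl-1 for a cathepsin L, cpz genes for cathepsin Z and asp genes for aspartyl proteases. The transcription factor ELT-2, a GATA zinc finger protein, directs most intestinal gene expression in the worm.

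The genes described here are all protein-coding genes of the Ensembl WBcel235 annotation named asp, cpr, cpl or cpz with a number. There are 28 of them among 19973 protein-coding genes on the nuclear chromosomes, of which 17 are asp genes, 8 are cpr genes, 1 is cpl-1 and 2 are cpz genes. Where ELT-2 sat beside them was read from ChIP-seq of whole L1 larvae, the first larval stage, in 1 group of 2 biological replicates. The hermaphrodites were of strain OP56, with the genotype unc-119(ed3) III and wgIs56, and stably expressed ELT-2 fused to a C-terminal GFP-FLAG tag. They were hatched and starved after bleaching, collected 6 h after synchronization, and precipitated with an antibody against GFP. No other condition was measured, so the comparisons are between gene families within 1 experiment. The labels call the replicates biological and do not say how far the cultures were separated. The signal comes from tagged ELT-2 in whole animals, and the cells that hold it cannot be told from these files.

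The authors' thresholded list held 5443 peaks on ce11, and the relaxed lists held 17177 in replicate 1, 18929 in replicate 2 and 16833 in the pool of both. The files hold peaks and not reads, so sequencing depth is unknown. The signal of a peak is the authors' enrichment statistic, and its rank in the thresholded list runs from 1 for the strongest to 5443. A gene is called bound when the summit of a thresholded peak falls in the stretch from 1000 bp before to 200 bp after the 5′ end of one of its transcripts. Many worm messages are trans-spliced, so an annotated 5′ end can lie downstream of the place where transcription starts.

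The promoter sequences under the peaks show how the sites that ELT-2 is known to recognise are laid out. The hexamer TGATAA is in capitals where a line holds it, and is written as its reverse complement TTATCA where it lies on the other strand. The runs are reference sequence from RefSeq WBcel235, the same coordinates as ce11, written 5′ to 3′ on the strand of the gene, up to 75 bp on each side of the summit and cut short where an annotated exon begins. The lines for cpr-4 and cpr-3 show the strongest promoter peaks of the whole group and the next 3 show cysteine protease promoters with paired hexamers. After them come both promoter peaks of asp-12, the gene with the strongest aspartyl protease peak, and the weakest bound promoter.
cpr-4 (chrV:6614501-6614651, plus strand): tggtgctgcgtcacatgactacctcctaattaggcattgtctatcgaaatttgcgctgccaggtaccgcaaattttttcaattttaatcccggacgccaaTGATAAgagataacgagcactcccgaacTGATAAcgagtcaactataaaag
cpr-3 (chrV:15298724-15298874, minus strand): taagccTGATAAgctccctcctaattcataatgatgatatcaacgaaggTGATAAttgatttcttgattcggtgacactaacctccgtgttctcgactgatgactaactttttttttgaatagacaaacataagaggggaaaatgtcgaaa
cpr-6 (chrX:6607093-6607206, plus strand): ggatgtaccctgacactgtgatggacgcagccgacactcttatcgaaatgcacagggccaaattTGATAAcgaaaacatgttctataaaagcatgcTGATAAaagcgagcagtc
cpl-1 (chrV:16595492-16595642, minus strand): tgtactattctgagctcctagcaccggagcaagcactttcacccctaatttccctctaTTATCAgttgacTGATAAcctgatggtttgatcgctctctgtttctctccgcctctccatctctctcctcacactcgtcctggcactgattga
cpr-9, the more distant peak (chrV:12002281-12002422, plus strand): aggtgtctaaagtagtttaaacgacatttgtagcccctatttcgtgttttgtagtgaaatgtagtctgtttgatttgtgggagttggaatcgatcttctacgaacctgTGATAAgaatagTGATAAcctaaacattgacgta
asp-6 and asp-12, shared peak (chrV:8269027-8269177, plus strand): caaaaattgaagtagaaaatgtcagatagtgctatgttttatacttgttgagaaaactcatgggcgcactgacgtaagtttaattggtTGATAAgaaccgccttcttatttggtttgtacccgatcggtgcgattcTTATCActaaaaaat
asp-12, intron peak (chrV:8270069-8270219, plus strand): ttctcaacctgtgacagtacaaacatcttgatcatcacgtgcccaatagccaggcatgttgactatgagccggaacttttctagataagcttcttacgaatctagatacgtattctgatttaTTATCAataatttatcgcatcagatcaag
asp-13 (chrV:8643194-8643304, minus strand): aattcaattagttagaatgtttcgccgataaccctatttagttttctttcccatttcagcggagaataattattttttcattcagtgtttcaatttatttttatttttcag
Each printed run for a cysteine protease held 2 hexamers. The shared asp-6 and asp-12 run held 2, the asp-12 intron run held 1 near its edge, and the asp-13 run held 0. These runs were picked for display, 3 of them for their paired hexamers, so the counts do not compare the families. The cpz-2 run, not printed, held 1 hexamer.

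ELT-2 marked the promoters of 20 of the 28 genes, or 71.4%, against 17.0% of all protein-coding genes (3401 of 19973). Of the 22 members on chromosome V 16 were bound, against 16.1% of all genes of that chromosome. The families differed in their shares. Of the cpr genes 7 of 8 were bound, 87.5%, as were cpl-1 and both cpz genes, which makes 10 of 11 cysteine protease genes, 90.9%. Of the asp genes 10 of 17 were bound, 58.8%. These are counts over genes of 1 experiment, some of which share a peak, and no test between families was made.

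The families also differed in how strong their peaks were. The strongest peak of a bound cpr gene had a median signal of 994 and a median rank of 127, that of a bound asp gene a median signal of 342 and a median rank of 1734, against a median signal of 259 and a median rank of 2593 over all 3401 bound genes. All 7 bound cpr genes and cpl-1 lay above that median signal, as did both cpz genes by a narrow margin and 6 of the 10 bound asp genes. The strongest peak of 11 of the 20 bound members, 55%, was among the 1360 strongest of the list, against 26.1% of all bound genes. These 11 were 5 cpr genes, cpl-1 and 5 asp genes. The plot of signal by member shows the order within each family.

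**Figure D1:**
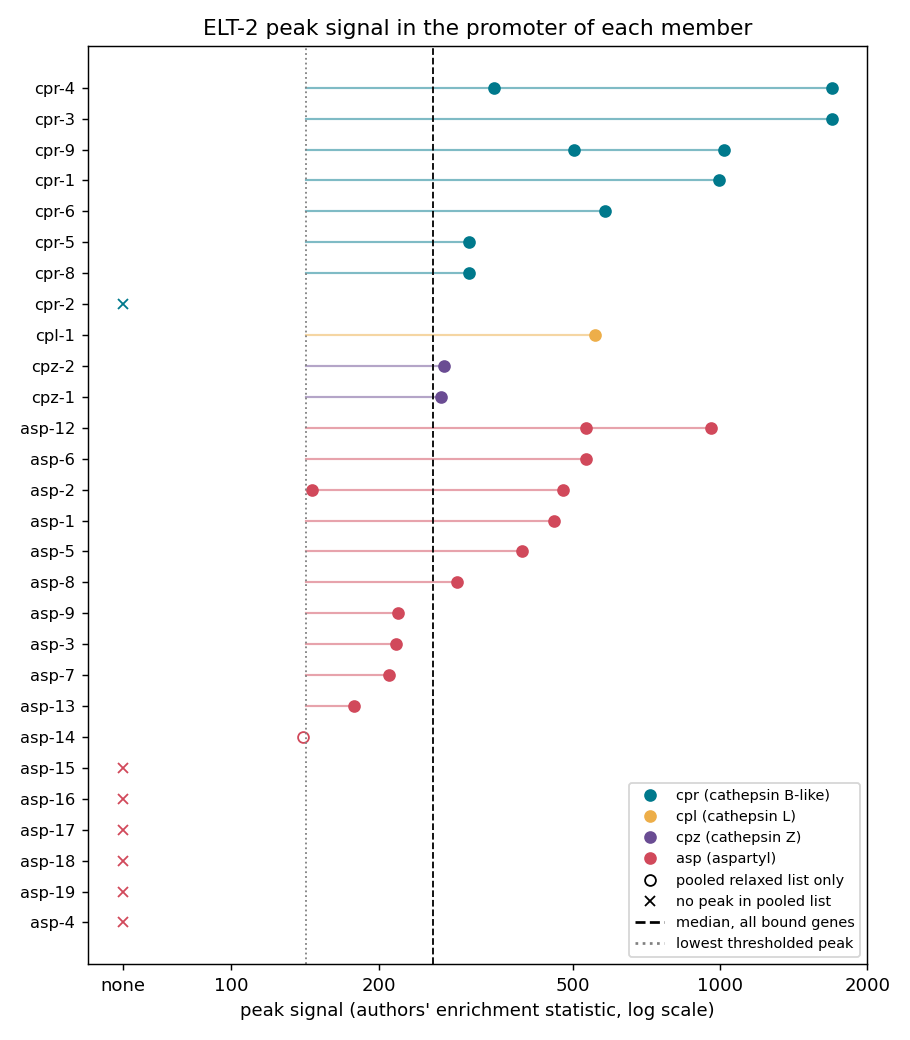
Peak signal (authors' enrichment statistic, log scale) of every thresholded ELT-2 summit in the promoter of each of the 28 genes, by family. Filled points are thresholded summits, the open point is asp-14 in the pooled relaxed list at 139.8, crosses at the left mark genes with no peak in that list, the dashed line is the median of all bound genes (259) and the dotted line the weakest thresholded peak (142). The cpr genes reach 1692 and the asp genes 956.

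Among the cathepsin B-like genes, cpr-4 and cpr-3 stood far above the rest. The peak of cpr-4, whose product is a secreted cathepsin B homologue, ranked 23 with a signal of 1692, and had a signal of 995 in replicate 1 and 659 in replicate 2, where it ranked 22 and 32. The peak of cpr-3 ranked 24 with a signal of 1689, and had 907 in replicate 1 and 788 in replicate 2, ranks 29 and 19. Their order was thus opposite in the replicates, while both stayed among the 32 strongest peaks of each. These genes lie on chromosome V, cpr-4 at 6614674 to 6615851 on the plus strand and cpr-3 at 15296834 to 15298700 on the minus strand. Their summits lay 98 and 99 bp upstream of the 5′ end, and each had 4 hexamers within 150 bp, 1 of them within 50 bp. The hexamers were not spaced alike, with centres 242.5, 206.5, 70.5 and 42.5 bp upstream for cpr-4 and 174.5, 165.5, 122.5 and 14.5 bp upstream for cpr-3. The cpr-4 promoter had a further, weaker summit 107 bp downstream of the 5′ end, in an exon, with a signal of 345 (213 in replicate 1 and 138 in replicate 2) and no hexamer within 150 bp.

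Peaks of intermediate strength stood at cpr-9, cpr-1 and cpr-6. On chromosome V, cpr-9 (12003053 to 12004584) carried peaks at both a distant and a near position. The distant summit, 706 bp upstream, had a signal of 1018 and rank 109 (634 in replicate 1 and 387 in replicate 2, ranks 78 and 180), and also lay 550 bp upstream of gcy-33, a guanylate cyclase gene. The near summit, 16 bp inside the gene, had a signal of 503 (326 in replicate 1 and 176 in replicate 2). Both replicates thus put the distant summit above the near one. The gut cysteine protease gene cpr-1, at 11975551 to 11976756 on the same chromosome, had its summit 128 bp upstream with a signal of 994 and rank 127, and 544 in replicate 1 and 423 in replicate 2, where it ranked 141 and 144. That summit falls in an annotated non-coding RNA on the opposite strand, so its sequence is not shown. The peak of cpr-6, on chromosome X at 6607207 to 6609045, lay 39 bp upstream with a signal of 582, and its rank was 583 in the list and in replicate 1 and 589 in replicate 2.

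The weakest bound cpr genes shared 1 peak, and 1 gene of the family had none. The genes cpr-5 and cpr-8 lie head to head on chromosome V, 565 bp apart, and the same summit lay 16 bp inside cpr-5 and 582 bp upstream of cpr-8. It had a signal of 307 and rank 1986, with 172 in replicate 1 and 145 in replicate 2, and 2 hexamers within 50 bp. Given only to the nearest 5′ end, it marked cpr-5 alone. The remaining gene, cpr-2, at 16532936 to 16534100 on chromosome V, had no peak in its promoter in any of the 4 lists, and the nearest thresholded summit was 4090 bp upstream. Its 500 bp of upstream sequence held 2 hexamers all the same.

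The cathepsin L and Z genes are few, and each was bound. In worms cpl-1 is needed for embryonic development. It lies on chromosome V at 16592572 to 16595346, and its peak stood 221 bp upstream with a signal of 553 and rank 651 (299.7 in replicate 1 and 258 in replicate 2, ranks 724 and 556). The hexamers nearest to this summit are the pair in the middle of the printed run, 12 bp apart from centre to centre. A further peak lay in an intron of cpl-1, 1935 bp downstream of its outermost 5′ end, with a signal of 336 and 3 hexamers within 50 bp. The cathepsin Z genes had weaker peaks of nearly the same size. For cpz-1, which acts in moulting, on chromosome I, the signal was 268 (159 in replicate 1 and 122 in replicate 2) and for cpz-2, on chromosome V, it was 272 (165 in replicate 1 and 113 in replicate 2). Their summits lay 52 and 14 bp upstream, and the cpz-2 summit also lay 913 bp upstream of ifbp-1.

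**Figure D2:**
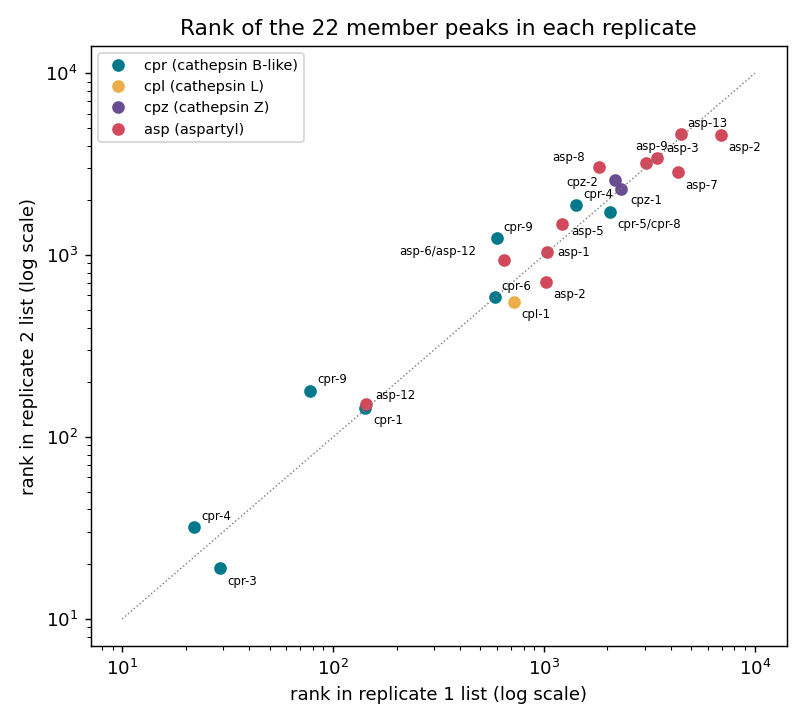
Rank of the 22 distinct thresholded peaks in member promoters in the relaxed list of replicate 1 (horizontal, log scale) and replicate 2 (vertical, log scale), by family, with equal ranks on the dotted line and rank 1 the strongest. The peaks of cpr-4 and cpr-3 are among the 32 strongest in both replicates. The weaker asp-2 peak, at 6881 and 4594, is last in replicate 1, and asp-13, at 4635, is last in replicate 2.

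Of the 22 distinct peaks in member promoters, 21 were among the 5443 strongest of both replicates, against 84.1% of all 3076 promoter peaks, as the plot of replicate ranks shows. The thresholded list was itself made from peaks shared by these replicates, so this count describes the peaks and is no independent check of them. The exception was the weaker of the 2 peaks of asp-2. Summits of the replicates lay a median of 15 bp apart and at most 76 bp apart, against a median of 15 bp over all promoter peaks. By the ratio of ranks, the replicates differed most at both peaks of cpr-9 and at asp-8. The peak of asp-7 ranked 4332 in replicate 1 and 2850 in replicate 2, and that of asp-8 ranked 1824 in replicate 1 and 3061 in replicate 2. Which of these neighbours has the stronger signal therefore differed between replicates, with 101 for asp-7 against 185 for asp-8 in replicate 1 and 105 against 100.5 in replicate 2. Replicate signals come from lists on different scales and are compared only within a list.

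Among the aspartyl protease genes the strongest peaks lay at a compact run of 3 genes on chromosome V. There asp-6, asp-12 and asp-5 follow each other with gaps of 272 and 328 bp, and all 3 were bound. The shared summit between asp-6 and asp-12, which point away from each other, lay 165 bp upstream of asp-6 and 108 bp upstream of asp-12, with a signal of 531 (314 in replicate 1 and 204 in replicate 2) and its position identical in both replicates. The strongest peak of the whole asp family, with a signal of 956 and rank 145 (539.6 in replicate 1 and 413 in replicate 2, ranks 143 and 151), lay in an intron of asp-12, 499 bp upstream of an internal transcript start. The nearest TGATAA to it has its centre 49.5 bp from the summit, so part of the hexamer lies more than 50 bp away. The peak of asp-5 lay 143 bp upstream with a signal of 394 (233 in replicate 1 and 161 in replicate 2), which is also 186 bp past the 3′ end of asp-12.

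Bound asp genes were found outside that run too. For asp-2, at 9203077 to 9204734 on chromosome V, the main summit was 167 bp upstream with a signal of 478 (256 in replicate 1 and 232 in replicate 2), and another at 993 bp, barely inside the window, had a signal of 146 and rank 5269. For asp-1, an intestinal aspartyl protease gene at 19049562 to 19050752 on chromosome V, the summit was 837 bp upstream with a signal of 457, and the peak ranked 995 in the list, 1029 in replicate 1 and 1037 in replicate 2. Thus asp-1 ranked alike in both replicates, and its main summit was the most distant of any member by the nearest 5′ end. The asp-12 main summit, at 8270144, is measured from an internal 5′ end, and the annotated gene starts at 8269210. In the neighbouring pair asp-8 and asp-7, 353 bp apart on chromosome V, asp-8 had its summit 49 bp upstream with a signal of 289.7 and asp-7 had its summit at 96 bp with a signal of 209.8.

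The weakest bound members were all asp genes. On chromosome IV, asp-9 had a summit 132 bp upstream with a signal of 219, with 132 in replicate 1 and 97.5 in replicate 2. For asp-3, a cathepsin D-like gene on chromosome X known for a part in necrotic death of neurons, the summit lay 139 bp inside the gene, in an exon, with a signal of 217, and with 122 in replicate 1 and 93.1 in replicate 2. For asp-13, on chromosome V, it lay 36 bp upstream with a signal of 178 and rank 4255, and with 98.2 in replicate 1 and 72.7 in replicate 2. These and asp-7 are the 4 members lost when only the 2721 strongest peaks are used, which leaves 6 asp genes bound and all 10 bound cysteine protease genes in place, against 8.86% of all genes bound with those peaks.

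**Figure D3:**
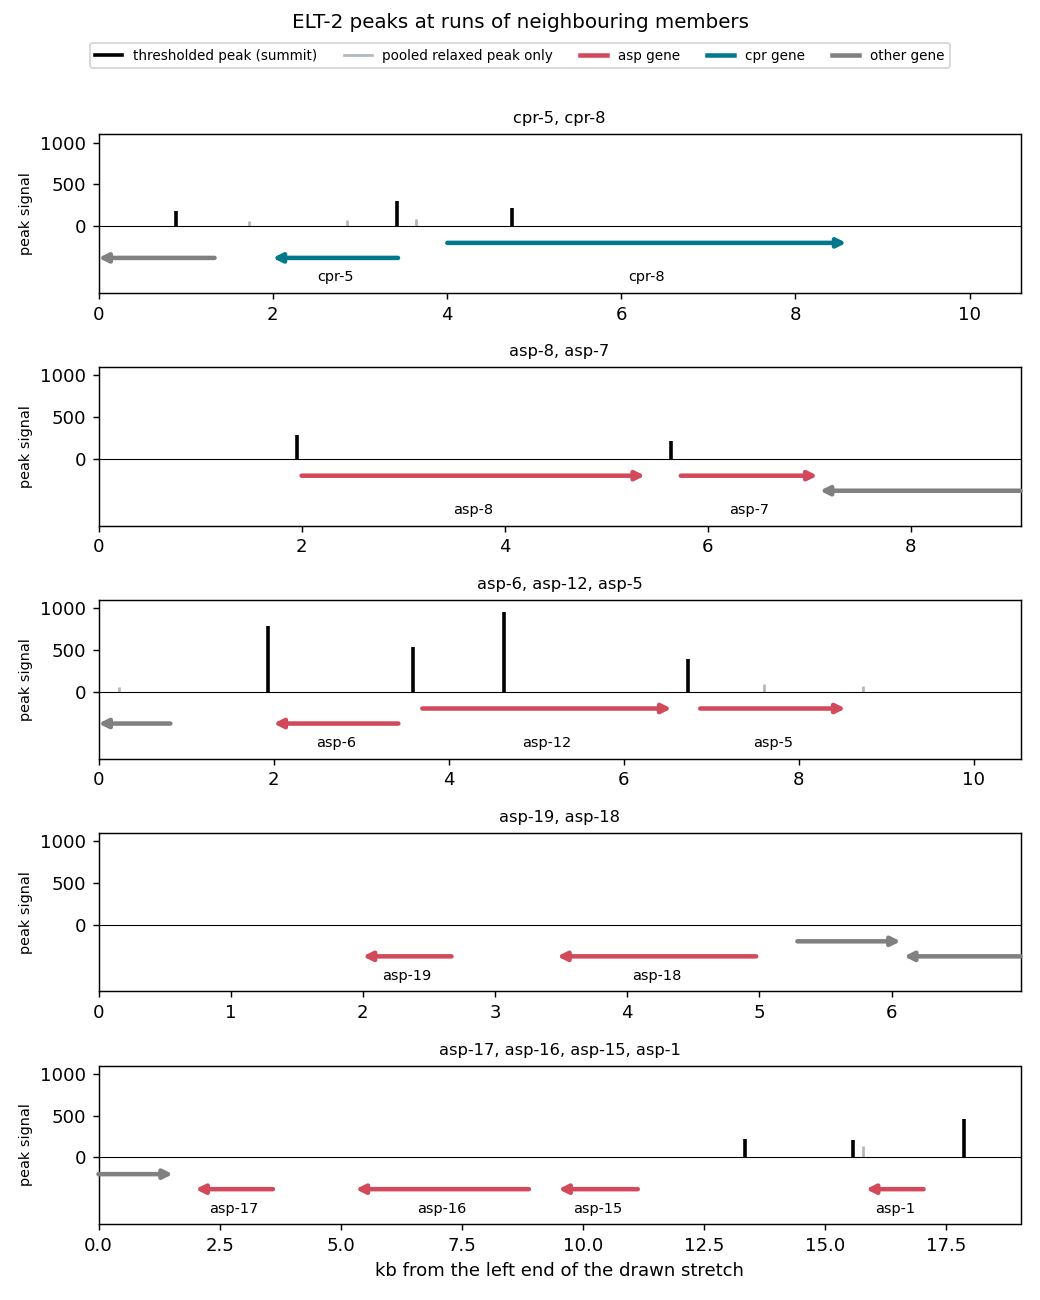
Thresholded peak summits (black, height is the signal) and peaks of the pooled relaxed list only (grey) at 5 runs of neighbouring members on chromosome V, with genes as arrows in the direction of transcription and distance in kb from the left end of each stretch. Summits stand before asp-8, asp-7, asp-6, asp-12 and asp-5, while asp-15 to asp-19 have none in their promoters and the nearest lies 2219 bp upstream of asp-15.

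The unbound genes were cpr-2 and 7 asp genes, and 5 of these 7 lie near the right end of chromosome V. From asp-19 to asp-1, over 322 kb, stand 6 asp genes, of which asp-15, asp-16, asp-17, asp-18 and asp-19 were unbound and asp-1 was bound. This stretch was singled out after its values were seen. Of the 56 other protein-coding genes in it 11 were bound, 19.6%, against 16.1% of all genes of chromosome V. Whether the position of these asp genes has a part in the result was not tested. No list held a peak in the promoters of asp-15, asp-17 and asp-18, while asp-16 had one in the replicate 1 list (signal 36.4, rank 16229 of 17177) and asp-19 one in the replicate 2 list (signal 26.02, rank 18716 of 18929). Both are at the background end of their lists. The nearest thresholded summit was 2219 bp upstream of asp-15 and 9750 bp upstream of asp-17, and for asp-18 and asp-19 it was 7880 and 5575 bp downstream of the 5′ end. Short reads cannot be placed uniquely in repeated sequence and the read length is not known here, so the share of 36 bp words occurring once in the genome was computed for each promoter window. It was 83.4% for asp-17 and above 98% for the other 7 unbound genes, against at least 97.3% for the bound ones, and its part in the result was not tested.

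The remaining unbound genes lie on chromosome X. For asp-14, at 6444185 to 6446664, the pooled list held a promoter peak just outside the threshold, 60 bp upstream with a signal of 139.8 and rank 5541, where the thresholded list ends at a signal of 142. The weakest bound member, asp-13, stood inside it at 178. In the replicates the asp-14 peak had signals of 79.7 and 57.1 and ranks of 5627 and 6047, so it missed the first 5443 in both. A thresholded peak with a signal of 305 lay in an intron of asp-14, 1254 bp downstream of the 5′ end. For asp-4, the other cathepsin D-like gene with a known part in necrotic death of neurons, at 13218985 to 13221462, no list held a promoter peak and the nearest thresholded summit was 3848 bp upstream. The pair asp-3 and asp-4 thus differed, with a weak peak at asp-3 and none listed at asp-4.

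Summits in bound promoters lay close to the gene. The strongest summit was a median of 130 bp from the nearest 5′ end of the gene in the 20 bound members, 99 bp in cpr genes and 141 bp in asp genes, against 214 bp over all bound genes. It was farther than 250 bp only in cpr-9, cpr-8, asp-1 and asp-12, and no such share was computed over all bound genes. More than 1 summit in the window was found for cpr-4, cpr-9, asp-2 and asp-12, which is 20% of bound members, against 8.88% of all bound genes. The plot of positions shows the summits beside the hexamers.

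**Figure D4:**
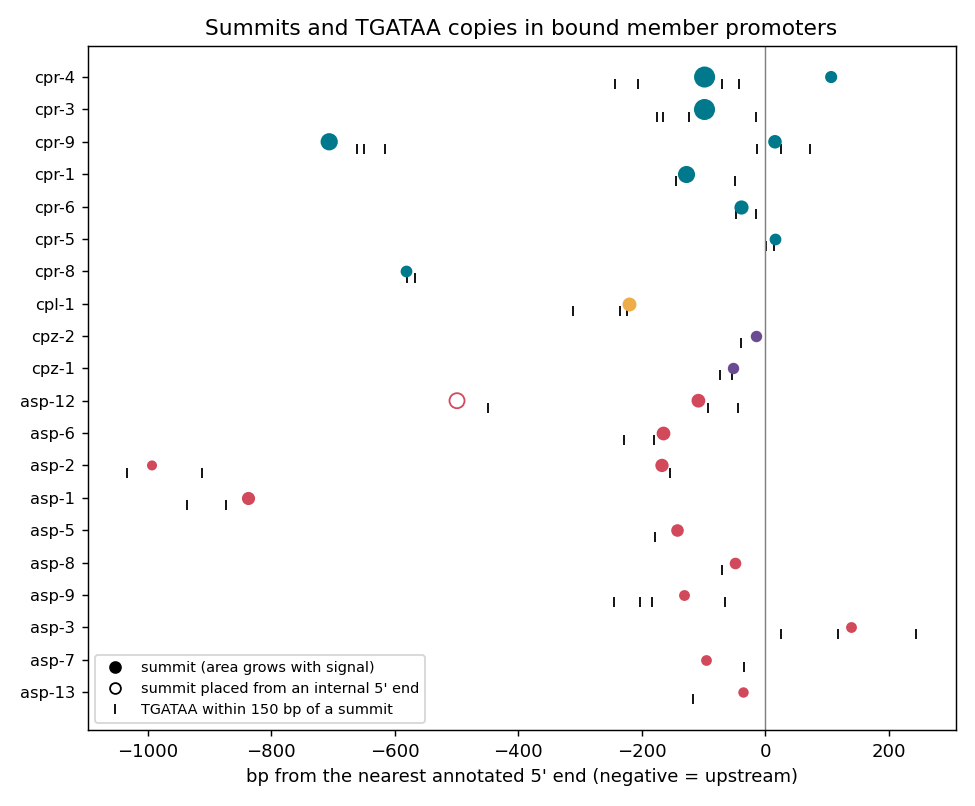
Position of each thresholded summit (points, area growing with signal) and of each TGATAA within 150 bp of a summit (ticks) in bp from the nearest annotated 5′ end, negative upstream, for the 20 bound members. Most summits lie within 250 bp of the 5′ end, with distant ones at asp-1, asp-2, cpr-8 and cpr-9, and the open point is the asp-12 peak placed from an internal transcript start.

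Of the 22 distinct member peaks 17 had the hexamer TGATAA, read on both strands, within 50 bp of the summit, 77.3%, against 42.4% of all 3076 promoter peaks (1304 peaks). Windows of the same 101 bp centred 100 bp upstream of every gene held it in 12.5%. A hexamer is counted where all of its bases lie within the stated distance. Within 25 bp it was found in 10 of the 22, 45.5%, against 25.6% of all promoter peaks. In cpr genes 7 of 8 peaks had it and 3 had at least 2 copies, while in asp genes 7 of 11 had it and none had 2, against 14.8% of all promoter peaks with at least 2. No difference between the families was tested. Within 150 bp, 7 of 8 cpr peaks and all 11 asp peaks held a copy, against 62.6% of all promoter peaks. The means were 2.5 copies in cpr peaks and 1.73 in asp peaks, against 1.13 over all promoter peaks. The peak without any was the weaker one of cpr-4. With any GATA preceded by A or T and followed by A or G counted on both strands, a motif that includes the hexamer, 19 of 22 member peaks had a match within 50 bp, 86.4%, against 54.6% of all promoter peaks.

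The mere presence of the hexamer upstream did not separate bound from unbound members. Mean copies in the 500 bp upstream were 1.85 in bound and 1.125 in unbound members, against 0.63 over all genes. No difference between these groups was tested. In the 500 bp upstream of the outermost 5′ end, 18 of the 20 bound members and 7 of the 8 unbound ones held at least 1 copy, against 43.7% of all genes. At least 2 copies stood in 11 of the 20 bound members and in 2 of the 8 unbound ones, cpr-2 and asp-19, against 14.4% of all genes. The bound members without a copy there were asp-1, whose summit lies farther out, and cpr-5, whose copies near the summit lie across its 5′ end and inside the gene. Among the unbound members asp-17 held none. The most copies, 4, stood upstream of cpr-3, cpr-4 and asp-9, whose peaks rank 24, 23 and 3274.

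Peaks outside the promoter window were frequent at these genes too. A thresholded summit lay 1 to 1000 bp past the 3′ end of 11 of the 28 genes, 39.3%, against 7.33% of all genes, leaving aside summits in the gene's own promoter window. For 7 of the 11, at least 1 such summit was in no protein-coding promoter, although those of cpr-1 and cpr-9 fell in an exon of the neighbouring gene. The matching share over all genes was not computed. For asp-8, asp-12, cpl-1 and cpr-6 the summit lay in the promoter of a neighbouring gene. The summit 69 bp past the 3′ end of asp-6 had a signal of 783 and rank 255 (474 in replicate 1 and 318 in replicate 2), above the 531 of its promoter peak. The summit 43 bp past the 3′ end of asp-3 had a signal of 352 (202 in replicate 1 and 155 in replicate 2), above the 217 of its promoter peak. Inside the gene but outside its promoter window, a summit was found in 7 of the 28 genes, 25%, against 4.88% of all genes.

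Related proteases and lysosomal enzymes give the setting for these shares. Among 17 families taken by name, 37 of 139 genes were bound, 26.6%, against 17.0% of all protein-coding genes. All 3 acid sphingomyelinase genes (asm), both acid ceramidase genes (asah), both cystatin genes (cpi), which code for inhibitors of cysteine proteases, and the legumain-like gene lgmn-1 (signal 481) were bound. The cystatin peaks were weak, the stronger at cpi-2 with a signal of 216. Prolyl carboxypeptidase-like genes were bound in 4 of 5 cases, led by pcp-1 with a signal of 988, glucocerebrosidase genes (gba) in 3 of 4 and acid glucosidase-related genes in 3 of 4, led by aagr-2 with a signal of 1992. Cathepsin A-like serine carboxypeptidase genes (ctsa) were bound in 3 of 7 cases, led by ctsa-1.2 with a signal of 673.

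Of the related families 6 had a share below the 17.0% of all genes, on small counts, and no difference from that share was tested. Of the trypsin-like genes (try) 2 of 14 were bound, of the neprilysin-like genes (nep) 3 of 23, of the astacin-like genes (nas) 5 of 37 and of the dipeptidyl peptidase-like genes (dpf) 1 of 7. None of 9 calpain genes (clp) and none of 6 serpin genes (srp), which code for protease inhibitors, was bound. The remaining families were leucine aminopeptidases (lap) with 1 of 2, hexosaminidases (hex) with 2 of 5 and lysosomal lipase-like genes (lipl) with 2 of 8.

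**Figure D5:**
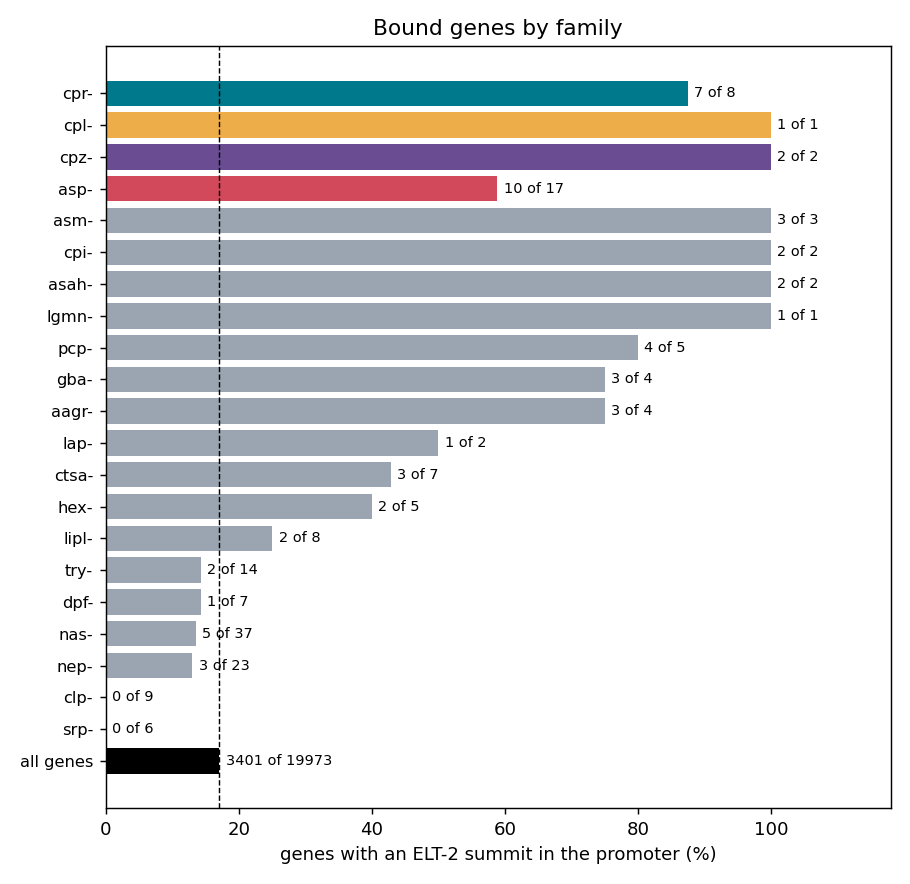
Share of genes (percent) with a thresholded ELT-2 summit in the promoter for the cpr, cpl, cpz and asp families (coloured), 17 related families taken by name (grey) and all protein-coding genes (black, and dashed line at 17.0%), with counts beside the bars. The cpr genes stand at 7 of 8 and the asp genes at 10 of 17.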

How the data were processed

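The authors' deposited peak lists on ce11 were used: 1 relaxed list per replicate, 1 for both replicates pooled and the thresholded list made from these 3 by the irreproducible discovery rate procedure, per the labels and the notes deposited with them. In each, the signal is the enrichment statistic deposited by the authors. The strongest peak of each bound member had the same signal in the thresholded and pooled lists, while the replicate lists are on different scales. The signal therefore only ranks and describes peaks, within a list or between the thresholded and pooled lists. For the aligner, the peak caller and the threshold: not given in the sources used here. Lists on ce10 were not used.

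Coordinates are 1-based. Genes and 5′ ends came from Ensembl release 115 and sequence from RefSeq, both WBcel235. Replicate values are those of the overlapping peak with the nearest summit. The members and lists were chosen with earlier results of these data known, and every member is reported. Alternatives were other windows, nearest or outermost 5′ ends, any overlap, the 2721 strongest peaks, each replicate left out (the 5443 strongest peaks of the other), and other motif windows. No p-value was computed, since genes of 1 experiment are not replicates. The programs were tested on simulated summits. The software was pandas 2.3.3, NumPy 2.4.6 and matplotlib 3.10.9 under Python 3.11.15.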

Additional observations from a re-analysis of the deposited data

How the results depend on the processing

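Across the other windows, the other ways of giving summits to genes, the shorter list and each replicate left out, between 16 and 22 of the 28 members were bound, against 8.86% to 25.2% of all genes. Without replicate 1 and without replicate 2 the same 20 members were bound, against 16.5% and 17.0% of all genes. The thresholded list was itself made from these replicates, so this is no independent check. Of 224 member calls under 8 alternatives 213 stayed as they were, and 13 of the 20 bound members were bound under each of the 8. The 11 that changed concern 9 genes. The window of 500 and 100 bp lost asp-1, asp-3 and cpr-8, the wide window of 3000 and 500 bp added asp-14 and asp-15, nearest 5′ ends lost asp-6 and cpr-8, and the 2721 strongest peaks lost asp-3, asp-7, asp-9 and asp-13. With those strongest peaks 6 asp genes were bound, against 10 in the whole list, while the cpr, cpl and cpz counts were as before. Within 25 bp of the summit, 10 of 22 member peaks held the hexamer, against 25.6% of all promoter peaks, and within 50 bp 17 did, against 42.4%. No paired analysis was possible because there is 1 group. Peak lists without read counts leave depth unknown, so an unbound gene is one with no listed peak and not one shown to lack ELT-2.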
